A study of Rattus norvegicus with 8 samples.

Results

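The TRP and Piezo set held 10 ion channel genes, namely Trpv1, Trpv2, Trpv4, Trpm3, Trpm7, Trpm8, Trpa1, Trpc1, Piezo1 and Piezo2. Its members were all rat probes on the array whose gene name was 1 of these 10 symbols, which gave 16 of the 45598 rat probes. Of these genes, 7 had 1 probe each, and Trpm7, Trpc1 and Piezo2 had several. Osteoblast-like cells had been released by enzyme digestion from the calvariae of Wistar rats aged 3 to 5 days, and the later digestion fractions had been kept, so each culture was a primary mixture and no cell line. Arrays of 4 non-irradiated cultures were compared with 4 arrays of cells that had received 3.3 J/cm2 from an Er:YAG laser over 60 s and were collected 6 h after the exposure. The dishes had been emptied of medium for the irradiation, and the labels name no other agent or genotype that differed between the groups. Per the methods, dishes for qPCR were then refilled with osteoinduction medium, which held ascorbic acid, β-glycerophosphate and dexamethasone. The medium of the array cultures is not stated separately. The question was which heat-sensitive and stretch-sensitive channels these cells expressed and whether their mRNA differed after the laser.

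TRP channels are cation channels, most of which let calcium into the cell. Several of them open with temperature, with chemical agonists or with membrane lipids, and they are best known from sensory neurons. Piezo channels open when the membrane is stretched, and in bone cells Piezo1 is known as a sensor of mechanical load. Er:YAG light is absorbed strongly by water, so a laser pulse can heat a cell layer and create pressure in it, which makes channels gated by heat or stretch of interest here.

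The probe sequences below belong to the members on which the results turn. Each line shows 30 of the 60 bases of a probe as the array files give them, 5′ to 3′. Capitals in the Trpv4 and Trpv1 lines mark the hexamers AATAAA and ATTAAA, the polyadenylation signal and its most common variant, which were searched on the printed strand alone. Capitals in the first Trpm7 line mark an unbroken run of C and T.
Trpv4 A_64_P130174: ctgttggtgctcAATAAAtgtttgtttatt
Trpm7 A_43_P12906: gTCTTCCCTCCCTCCCTCTCTTTTTCCCTg
Trpm7 A_44_P550412: gcttaaacttccagatctgaagaggaatga
Piezo2 A_44_P203859: tggtgagaaatctttctattgaacaccagt
Piezo2 A_44_P1152431: ttcatgagttactatttcctgcatgtcgtg
Trpv1 A_64_P130201: tttatggactttATTAAAcagagtgaatgg
By the array's own annotation (genome build rn4), the Trpv4 probe lay at chr12:43265830-43265889 on the plus strand, the Trpv1 probe at chr10:60134879-60134938 on the plus strand, and the 2 Piezo2 probes shown at chr18:59147634-59147693 and chr18:59206348-59206407 on the minus strand. The first Trpm7 probe was placed by 20 bases alone, at chr3:114320798-114320817 on the minus strand, and the second was spread over chr3:114322191-114324601 on the same strand. Either hexamer was found in 3 of the 16 member probes and in 12.6% of all 45598 rat probes. The run of C and T in the first Trpm7 probe was 28 bases long, a length reached by 13 rat probes on the array (0.0285%), and the longest such run in any other member probe was 10 bases.

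The 8 arrays came from 1 slide and 1 scan. Between 58.2% and 66.9% of the rat probes were well above background on an array, and no spot was saturated. Every non-irradiated array sat in slide column 1 or 3 and every irradiated one in column 2 or 4, so the effect of position and that of the laser cannot be told apart. The 8 osteoblast markers looked at (Runx2, Sp7, Alpl, Col1a1, Bglap, Ibsp, Spp1 and Sparc) were detected on all 8 arrays. Markers of other cells were also found. Among them, 4 of 5 chondrocyte genes, 5 of 5 endothelial genes, 5 of 6 skeletal muscle genes and 3 of 6 macrophage genes were detected on all 8 arrays. For scale, 53.5% of all rat probes were detected on all 8 arrays, and a gene counted through any of its probes. The macrophage count was near that share. The replicate numbers of the groups were treated as pairs, because the deposited names give both arrays of a number the same animal number. Nothing in the labels says how many litters or digestions lay behind them, so the p-values bear on these 4 pairs only. The limma fit used below draws the variance of each probe toward a value shared by all fitted probes. Its standard errors, intervals and p-values thus do not rest on a probe's own 4 pairs alone.

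Of the 10 channels, 7 were detected on all 8 arrays through at least 1 probe, namely Trpv2, Trpv4, Trpm7, Trpm8, Trpc1, Piezo1 and Piezo2. Trpv1 and Trpa1 were well above background on none of the arrays. Trpm3 was detected on 5 of them. A probe counted as detected on an array when over 50% of its spots were well above background by the scanner software. By probes, 11 of 16 (68.8%) were detected on all 8 arrays and 3 (18.8%) on none, against 53.5% and 25.4% of all rat probes.

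**Figure D1:**
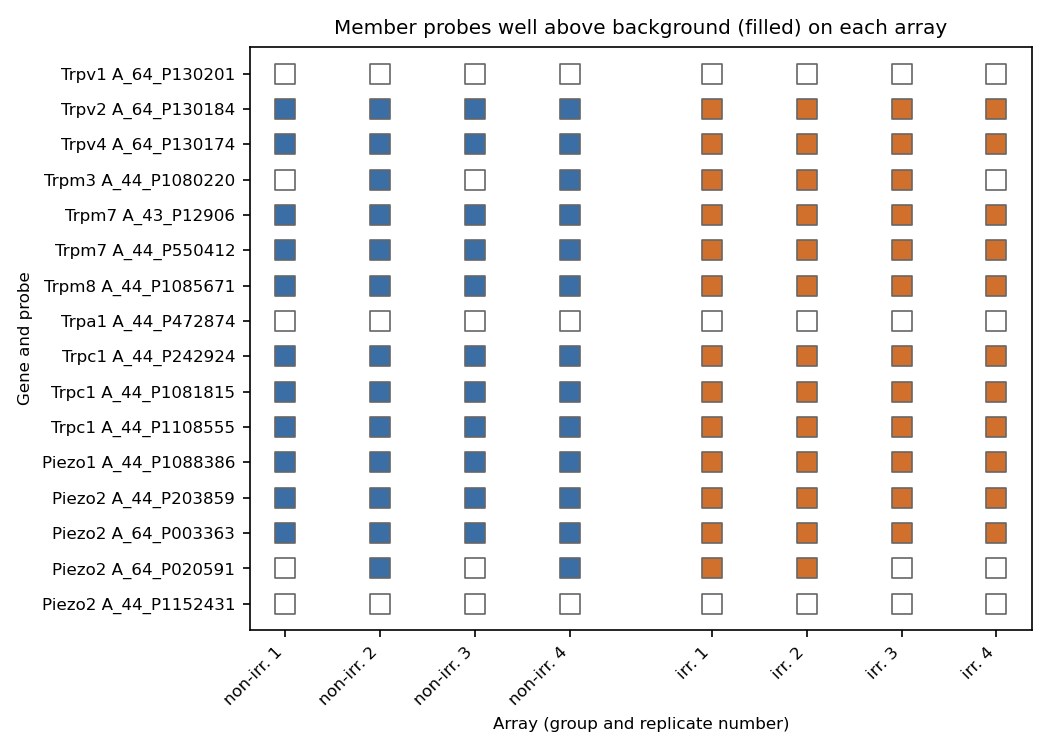
Each square is 1 member probe (rows) on 1 array (columns), filled where the probe was well above background, in blue for non-irradiated and in orange for irradiated arrays. The rows of Trpv1, Trpa1 and Piezo2 A_44_P1152431 are empty, those of Trpm3 and Piezo2 A_64_P020591 are filled in part, and the other 11 rows are filled on all 8 arrays.

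Trpv1, the capsaicin receptor and a noxious heat sensor of pain neurons, gave processed signals of 11.6, 3.12, 2.88 and 2.68 on the non-irradiated arrays 1 to 4 and of 4.46, 3.08, 2.65 and 4.03 on the irradiated ones. For scale, the lowest processed signal of any probe called well above background was between 10.0 and 14.9, depending on the array. The Trpv1 signal of non-irradiated array 1 was therefore the highest of the 8 and still below that array's limit of 14.7.

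Trpa1, the receptor for mustard oil and other electrophiles, stayed between 2.33 and 4.12 on the 8 arrays. Its irradiated and non-irradiated arrays overlapped, and no array came near its limit. Both genes carry a single probe, so a transcript that ends elsewhere would not have been measured.

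Trpm3, a heat-sensitive channel that also responds to the steroid pregnenolone sulfate, gave processed signals of 10.6, 24.4, 5.99 and 19.8 on the non-irradiated arrays and of 18.1, 18.7, 13.7 and 8.61 on the irradiated ones. It was detected on non-irradiated arrays 2 and 4 and on irradiated arrays 1, 2 and 3. The groups overlapped, and Trpm3 was not tested because neither group had all 4 arrays above background. Under a looser rule (signal positive and significant, or above the negative control spots) Trpm3 counted as detected on all 8 arrays. Trpv1 was positive and significant on 3 arrays and above the negative control spots on 1. Trpa1 was positive and significant on 1 array and above the negative control spots on none.

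Genes that mark sensory neurons were looked at beside these channels. The pain neuron sodium channels Scn9a, Scn10a and Scn11a were well above background on none of the arrays, as were Trpv1 and Trpa1. Of the 8 neuronal markers, 2 were detected on all 8 arrays, among them Tubb3 (a neuronal tubulin). Tubb3 differed by -0.046 (limma adjusted p = 1.00). Prph was detected on 2 of 4 non-irradiated and 4 of 4 irradiated arrays. It was thus tested through the irradiated group alone, in which it was higher, with a difference of 0.42 (SE 0.21). Tac1 and 1 probe of Calca were each detected on 3 arrays, and the other Calca probe on none. Summed over the 8 genes, processed signals were between 110.9 and 232.1 on non-irradiated arrays and between 128.9 and 300.3 on irradiated arrays, with overlap between the groups, and the part of neuronal RNA in any channel value was not tested.

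The 11 member probes detected on all 8 arrays were the ones that passed the filter for testing and were compared between irradiated and non-irradiated cells. All values from here on are log2 of quantile normalized signal, read within a probe and never between probes, and a difference is irradiated minus non-irradiated. None of the 11 probes passed an adjusted p of 0.1 when limma was fitted with replicate pairs as a block, and neither did any of the 26399 probes fitted (0.0%), among which the smallest adjusted p was 1.00. At an unadjusted limma p below 0.05 there was 1 member probe of 11 (9.09%) and 670 probes in all (2.54%). That probe was higher, as were 1.42% of all tested probes at this limit, and no member was lower, against 1.12%. In sign, 6 member probes were higher and 5 were lower in irradiated cells, with 48.8% of all tested probes higher. The median difference of the 11 probes was 0.0044 and that of all tested probes was -0.0034. In none of the 11 did the 4 irradiated values lie clear of the 4 non-irradiated ones, which 0.602% of all tested probes did.

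The member probe below 0.05 was Trpm7 A_43_P12906. Trpm7 is a channel for magnesium, zinc and calcium joined to a kinase, and it is found in most cell types. The probe read 13.52, 14.20, 13.56 and 13.72 in non-irradiated cells and 13.84, 14.73, 14.00 and 13.88 in irradiated cells. Every irradiated array lay above its partner, by 0.32, 0.52, 0.44 and 0.16, although the groups as a whole overlapped, since non-irradiated array 2 exceeded 3 of the irradiated arrays. The difference was 0.36 with a standard error of 0.12, which is 1.28-fold with a 95% interval of 1.05 to 1.57 (limma adjusted p = 1.00). The exact two-sided sign-flip permutation test gave p = 0.125, the smallest value that 4 pairs allow. Of all tested probes, 3.55% were likewise higher in 4 of 4 pairs, 3.98% were lower in 4 of 4, and 7.52% had 1 direction throughout. No other member probe did.

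The other Trpm7 probe, A_44_P550412, read 5.00, 4.94, 4.97 and 5.08 in non-irradiated cells and 4.65, 4.46, 5.39 and 5.03 in irradiated cells. It was lower in 3 of 4 pairs, and its difference of -0.11 (SE 0.18, limma adjusted p = 1.00) had the opposite sign. Its 95% interval ran from -0.54 to 0.32, so it included 0 and overlapped that of the first probe. Both probes carry the same transcript name, and the second lay 1393 bases further from the 3′ end. The unadjusted call of the first probe was lost without the replicate block, with the block as a random effect, without replicate 1 and without replicate 3, while its difference stayed between 0.30 and 0.43 in the 14 settings tried for it. In view of the run of C and T in this probe, the tested probes with such a run of at least 20 bases were examined after its values were seen. Of these 53 probes, 37 were higher in irradiated cells, against 48.8% of all tested probes, with a median difference of 0.055. In 4 of 4 pairs, 7 of the 53 were higher, against 3.55% of all tested probes. An unadjusted limma p below 0.05 was found for 2 of them (3.77%), against 2.54% of all. The part of the run in the Trpm7 value was not tested.

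**Figure D2:**
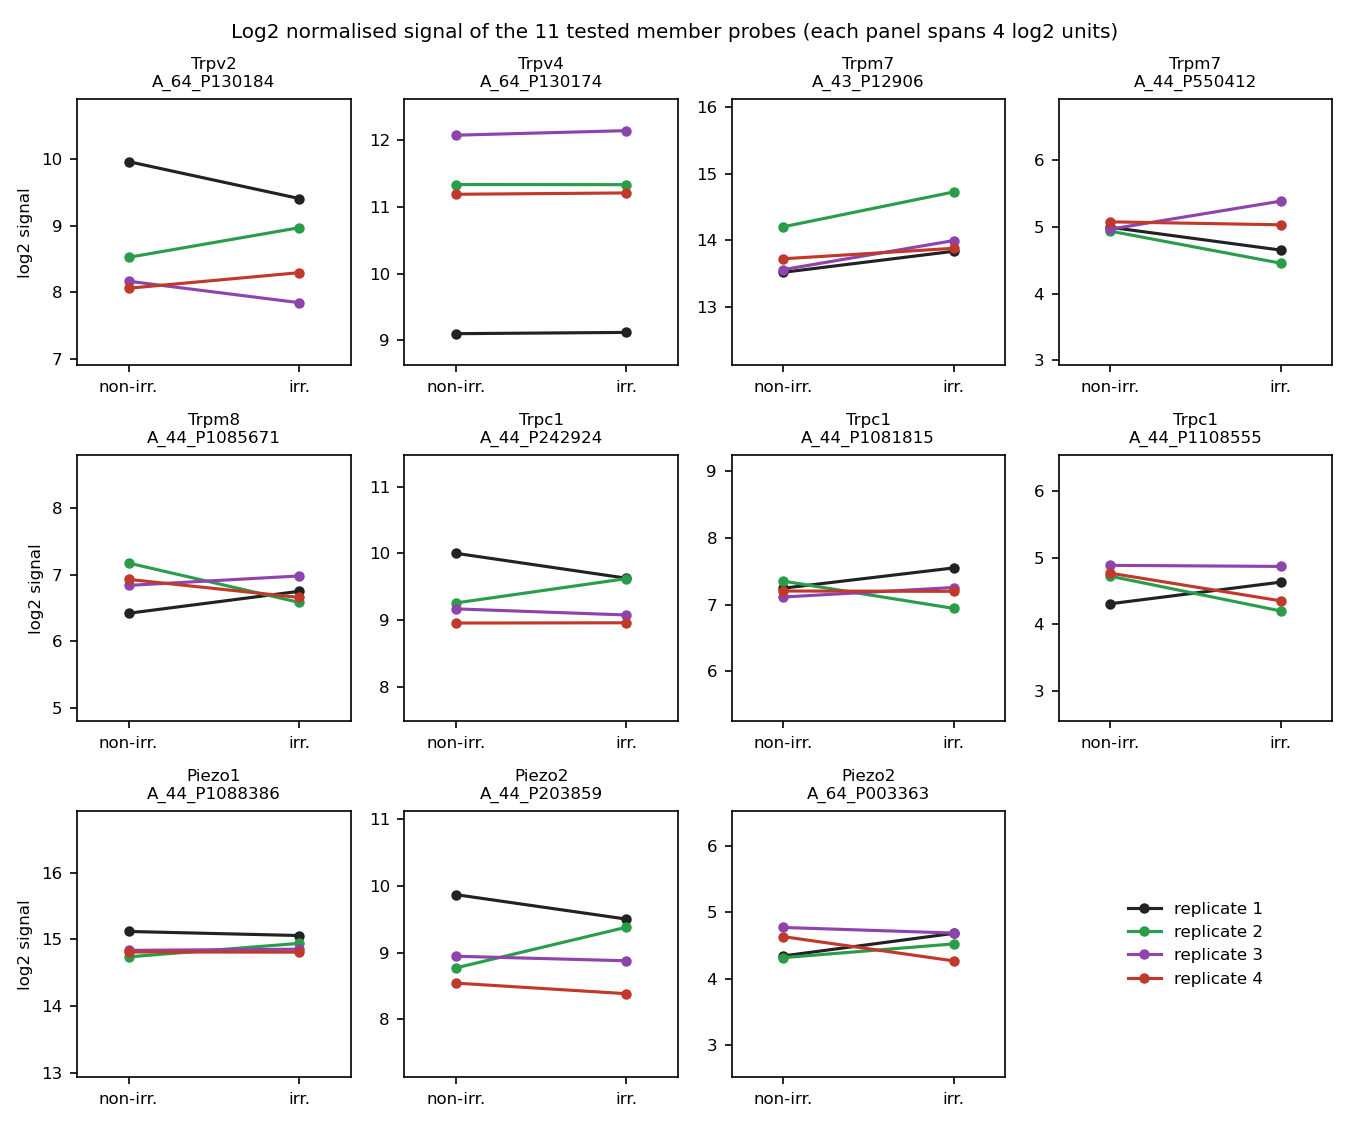
Log2 normalised signal of the 11 tested member probes, with lines joining the non-irradiated (left) and irradiated (right) array of each replicate number and every panel spanning 4 log2 units. All 4 lines climb in the panel of Trpm7 A_43_P12906, whereas in the Trpv4 panel the lines are flat and replicate 1 lies below the other replicates.

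The other 10 member probes had differences between -0.16 and 0.039, and none of them had an unadjusted limma p below 0.05. In each of these 10 the limma standard error exceeded the difference. Each of their 95% intervals included 0, and over the 10 probes the lowest bound was -0.58 and the highest 0.45, with narrower intervals for Trpv4 and Piezo1, given below. The plot of differences shows these intervals beside those of the other channels.

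Piezo1, the stretch-activated channel known as a load sensor in bone cells, was measured by 10 spots per array, the most of any member. Its probe read 15.12, 14.74, 14.84 and 14.81 in non-irradiated cells and 15.06, 14.94, 14.85 and 14.81 in irradiated cells. Replicate 1 was the highest in both groups, and the irradiated values lay within the range of the non-irradiated ones. The difference was 0.039 (SE 0.11, 95% interval -0.24 to 0.31, limma adjusted p = 1.00).

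Piezo2, the touch and proprioception channel of sensory nerve endings, had 4 probes that did not give the same picture. The probe nearest the 3′ end, A_44_P203859, read 9.87, 8.77, 8.94 and 8.54 in non-irradiated cells and 9.50, 9.38, 8.88 and 8.38 in irradiated cells. Replicate 2 was higher after irradiation by 0.61 and the other 3 pairs were lower, so that the mean difference was 0.0044 (SE 0.18, limma adjusted p = 1.00). The sign of that difference turned with the normalization.

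The next Piezo2 probe, A_64_P003363, lay 628 bases further 5′ and was detected on all 8 arrays with values of 4.34, 4.32, 4.77 and 4.63 against 4.68, 4.52, 4.69 and 4.27. Its difference was 0.024 (SE 0.15, limma adjusted p = 1.00). A_44_P1152431, 58714 bases from the most 3′ probe, was detected on none of the arrays, with processed signals between 4.07 and 15.3. A_64_P020591, 103775 bases away, was detected on non-irradiated arrays 2 and 4 and irradiated arrays 1 and 2, and its spot on irradiated array 2 was marked as an outlier and left out.

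Detection of Piezo2 on all 8 arrays thus rested on the 2 probes nearest the 3′ end. Among the 7506 genes with several placed probes, the most 3′ probe alone was detected on all 8 arrays in 19.7%, and the most 5′ probe alone in 9.58%. The 4 Piezo2 probes carry 3 transcript names. A_64_P003363 and A_64_P020591 share a name and were detected on 8 and 4 arrays, so they differed in detection under the same name. For the other 2 probes, transcript and position cannot be told apart.

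Trpv4, a channel opened by warmth, osmotic swelling and shear, and known for its role in cartilage, had the smallest pair differences of the member probes and the widest spread between replicates. It read 9.10, 11.33, 12.08 and 11.19 in non-irradiated cells and 9.12, 11.33, 12.14 and 11.21 in irradiated cells. The 2 arrays of a replicate number differed by at most 0.068, whereas both arrays of replicate 1 lay far below 11.19, the lowest value of the other 6 arrays. The difference after irradiation was 0.026 (SE 0.11, 95% interval -0.23 to 0.28, limma adjusted p = 1.00).

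The range of the 4 replicate means was 3.00 for Trpv4, a range reached by 0.377% of the 26250 tested probes with complete pairs, whose median range was 0.564. It was 111 times the mean absolute difference within its pairs (0.027). Cartilage genes were lowest in the same replicate. Col2a1, the main collagen of cartilage, read 9.84, 15.29, 15.82 and 15.07 in non-irradiated cells and 10.23, 14.68, 15.88 and 15.11 in irradiated cells.

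Acan, the large proteoglycan of cartilage, read 6.26, 8.15, 9.11 and 7.66 against 6.41, 8.35, 9.15 and 7.97. Comp, a cartilage matrix protein, read 11.49, 13.33, 14.35 and 12.92 against 11.83, 12.97, 14.35 and 12.88. In these 3 genes, as in Trpv4, replicate 1 was the lowest and replicate 3 the highest on average.

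Of the 7 tested probes of the chondrocyte list, 6 were lowest in replicate 1, as were 30.7% of all tested probes. The exception was among the 4 Sox9 probes. The summed processed signal of the chondrocyte list was 6977 on non-irradiated array 1 and between 42764 and 97049 on the other non-irradiated arrays, and 9560 on irradiated array 1 and between 38289 and 78209 on the others. In arrays of mixed cultures, fewer cells of a type and less RNA per cell cannot be told apart. The part of cartilage cells in the Trpv4 level was not tested.

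Trpv2, a channel that opens at high temperature and on stretch, differed between replicates in the other direction. It read 9.96, 8.52, 8.16 and 8.06 in non-irradiated cells and 9.41, 8.97, 7.84 and 8.29 in irradiated cells. Replicate 1 was the highest in both groups, and 2 pairs were higher and 2 were lower after irradiation. The range of the replicate means was 1.68, reached by 3.23% of tested probes, and the difference after irradiation was -0.049 (SE 0.20, limma adjusted p = 1.00).

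Piezo2 A_44_P203859 also was highest in replicate 1, with a range of 1.22 that 9.78% of tested probes reached. Among the other gated channels, the stretch-activated potassium channel Kcnk2 had the same order of replicate 1 over the rest, with 12.56, 10.00, 9.42 and 9.66 against 12.01, 10.50, 8.98 and 9.74. The endothelial gene Tek read 8.20, 5.91, 5.84 and 6.55 against 7.85, 6.29, 5.68 and 6.01, also highest in replicate 1. The summed endothelial signal, however, was highest in replicate 2, at 13917 and 17680, and the part of either cell type in these levels was not tested.

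**Figure D3:**
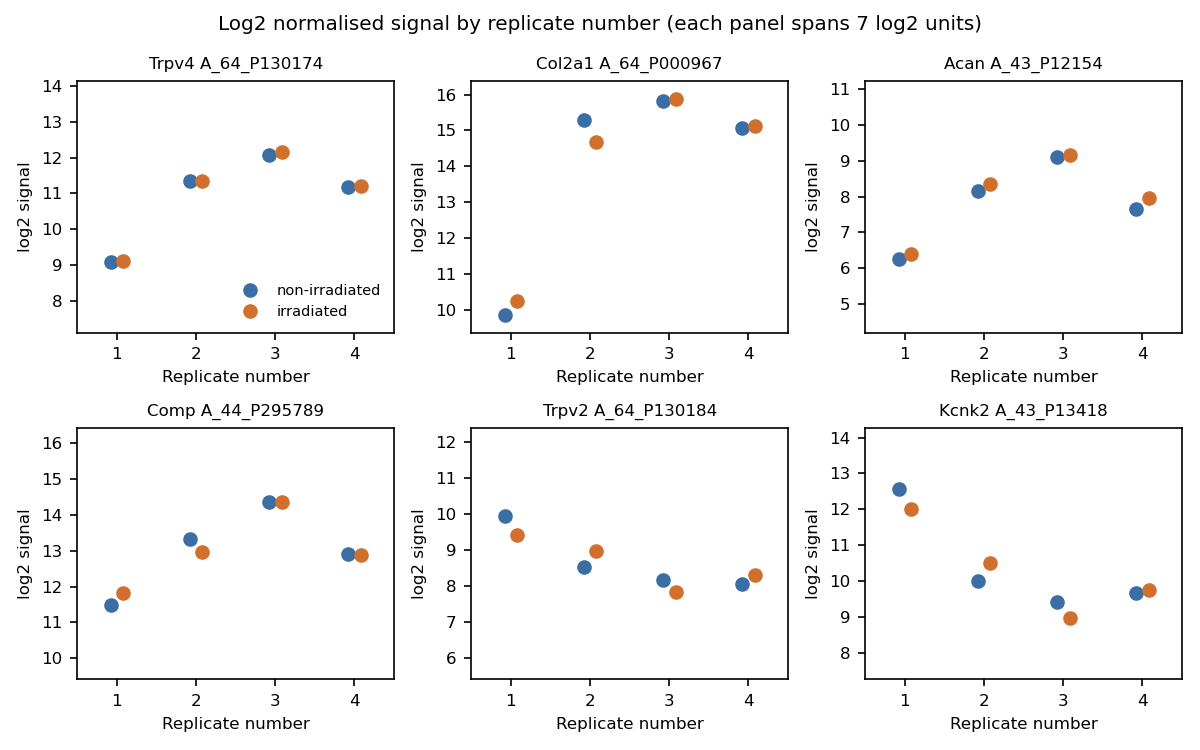
Log2 normalised signal (vertical axis, each panel spanning 7 log2 units) by replicate number for Trpv4, 3 cartilage genes, Trpv2 and Kcnk2, with non-irradiated arrays in blue and irradiated arrays in orange. Both points of replicate 1 sit lowest for Trpv4, Col2a1, Acan and Comp and highest for Trpv2 and Kcnk2.

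**Figure D4:**
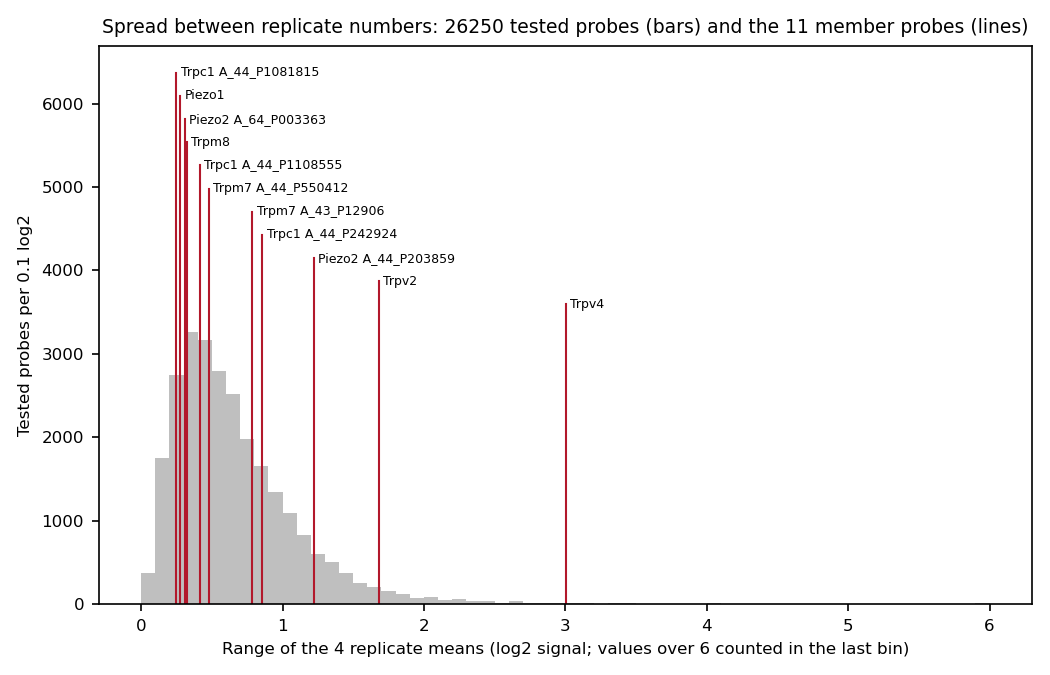
The bars count the 26250 tested probes by the range of their 4 replicate means (log2 signal), and the red lines mark the 11 tested member probes. Most member probes sit in the body of the distribution, and Trpv4 at 3.00 sits in its far tail.

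Trpm8, the menthol and cold receptor, was detected on all 8 arrays. It read 6.42, 7.17, 6.84 and 6.93 in non-irradiated cells and 6.75, 6.58, 6.98 and 6.66 in irradiated cells, with processed signals between 87.5 and 156.3. After irradiation 2 pairs were higher and 2 were lower. The difference was -0.098 (SE 0.18, 95% interval -0.54 to 0.34, limma adjusted p = 1.00), and the replicate means spanned 0.32.

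Trpc1, a channel studied for calcium entry after store depletion and for stretch, was detected by 3 probes. A_44_P242924, nearest the 3′ end, read 10.00, 9.26, 9.17 and 8.96 against 9.63, 9.62, 9.08 and 8.96, with a difference of -0.024 (SE 0.15). A_44_P1081815, 447 bases further 5′, read 7.25, 7.35, 7.11 and 7.20 against 7.55, 6.94, 7.26 and 7.20, with a difference of 0.0081 (SE 0.15). A_44_P1108555, 3230 bases away, read 4.31, 4.73, 4.89 and 4.77 against 4.64, 4.20, 4.87 and 4.35, with a difference of -0.16 (SE 0.17). The limma adjusted p was 1.00 for each, and in each of them the groups overlapped. The first probe was highest in replicate 1 and the third in replicate 3, so the 3 probes did not order the replicates alike.

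Probes of other genes whose signal ran most like a member's over the 8 arrays were named by Pearson r among 16717 probes of other named genes detected on all 8 arrays. The 8 arrays come from 4 pairs, and replicate 1 stands apart for several genes, so the r without replicate 1 (6 arrays) is given too. For Trpv4 these were Mia, a protein secreted by cartilage cells, with r = 0.996 (0.970 without replicate 1), and Susd5 with r = 0.995 (0.983). For Trpv2 they were Thy1, a surface protein of fibroblasts and other stromal cells, with r = 0.995 (0.999), and Mrpl10 with r = 0.995 (0.978).

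Adcy9, an adenylyl cyclase, and Zeb2, a transcriptional repressor, followed Piezo1 with r = 0.996 (0.981) and 0.994 (0.992). Cdc42bpb, a kinase of the actin cytoskeleton, followed Piezo2 A_44_P203859 with r = 0.997 (0.991), and Zfp618 followed with r = 0.991 (0.976). Azi2 and Ptp4a2 followed Trpc1 A_44_P242924 with r = 0.999 (0.999) and 0.997 (0.993). For Trpm7 A_43_P12906 they were Aoc1 at 0.968 (0.995) and Lig3 at 0.967 (0.987), and for Trpm8 Pdia3 at 0.950 (0.954) and Wdr45 at 0.949 (0.964). The top gene was Hyal3 at 0.975 (0.975) for Trpm7 A_44_P550412 and Clu at 0.994 (0.989) for Trpc1 A_44_P1081815. It was Mpc2 at 0.960 (0.970) for Trpc1 A_44_P1108555 and Spink4 at 0.936 (0.939) for Piezo2 A_64_P003363. Each was picked as the highest r among 16717 probes, and how high r would run by selection alone was not tested. After the mean of each group was subtracted, the top probe for Trpv2 was Pcdh7 (r = 0.996), and it was the same as before for Trpv4, for Piezo1, for Piezo2 A_44_P203859, for Trpc1 A_44_P242924 and for Trpm7 A_43_P12906.

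Other TRP channels were read for comparison. Of 20 genes, 19 were on the array and 10 were detected on all 8 arrays, namely Trpc4, Trpv3, Trpm2, Trpm4, Trpm5, Trpm6, Pkd2, Pkd2l1, Mcoln1 and Mcoln3. Detected on none were 4 genes, among them Trpc5, Trpv5 and Mcoln2. Of the 16 probes tested, 11 were detected on all 8 arrays. None of these 11 had an unadjusted limma p below 0.05, and their median difference was 0.063. The other 5 probes passed the filter through 1 group alone, which favours probes that are high in that group. Among those 5, 2 probes were higher and 1 was lower at an unadjusted p below 0.05, which is given as a description with no weight as support, and none of the 16 passed an adjusted p of 0.1.

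The diacylglycerol-sensitive channel Trpc6 and 1 probe of its relative Trpc4 were detected on 3 of 4 non-irradiated and 4 of 4 irradiated arrays, and so were tested through the irradiated group, in which they were higher. Trpc6 read 4.69, 5.68, 5.55 and 4.34 in non-irradiated cells against 5.10, 6.09, 5.75 and 5.63, higher in 4 of 4 pairs with a difference of 0.58 (SE 0.20, limma adjusted p = 1.00). Trpc4 A_44_P1102633 read 3.64, 4.63, 3.12 and 4.14 against 4.08, 5.39, 4.48 and 4.32, with a difference of 0.68 (SE 0.21, limma adjusted p = 1.00). The 2 other Trpc4 probes, which were the brighter ones, differed by 0.18 and 0.063.

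Trpm1, a channel of retinal bipolar cells and melanocytes, was tested through the non-irradiated group, where it was detected on 4 of 4 arrays against 3 of 4 irradiated ones. It read 4.30, 4.16, 4.60 and 4.66 in non-irradiated cells, with 4.20, 3.90 and 4.03 on irradiated arrays 1 to 3, and a value lower still on the last array. The difference was -0.55 (SE 0.21, limma adjusted p = 1.00). Pkd2 (polycystin-2), Mcoln1 (a lysosomal channel) and Trpv3 (a warmth sensor of skin) differed by -0.0083, -0.078 and 0.18. Pkd2l1, detected on all 8 arrays, was higher in 4 of 4 pairs, as were 3.55% of all tested probes, with a difference of 0.20 (SE 0.12).

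Of 14 other channels gated by stretch, swelling or heat, 8 were detected on all 8 arrays (Kcnk2, Tmem63a, Tmem63b, Tmem63c, Tmc1, Lrrc8a, Ano1 and Pkd1) and 5 on none (Kcnk4, Kcnk10, Tmc2, Asic1 and Asic2). Of their 12 tested probes, 11 were detected on all 8 arrays, and 1 passed the filter through 1 group alone. Among those 11, 2 were higher at an unadjusted limma p below 0.05 (1.42% of all tested probes) and none were lower (1.12%). The median difference of the 11 was 0.056. Tmc1, part of the hair cell transduction channel, read 5.38, 5.90, 5.70 and 5.46 against 5.64, 6.49, 5.81 and 5.95, a difference of 0.36 (SE 0.13, limma adjusted p = 1.00). Ano1, a calcium-activated and heat-sensitive chloride channel, read 5.92, 6.68, 6.97 and 6.18 against 6.17, 7.11, 7.41 and 6.28, a difference of 0.31 (SE 0.12, limma adjusted p = 1.00). Both were detected on all 8 arrays and were higher in 4 of 4 pairs, as were 3.55% of all tested probes, and in both the groups overlapped.

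**Figure D5:**
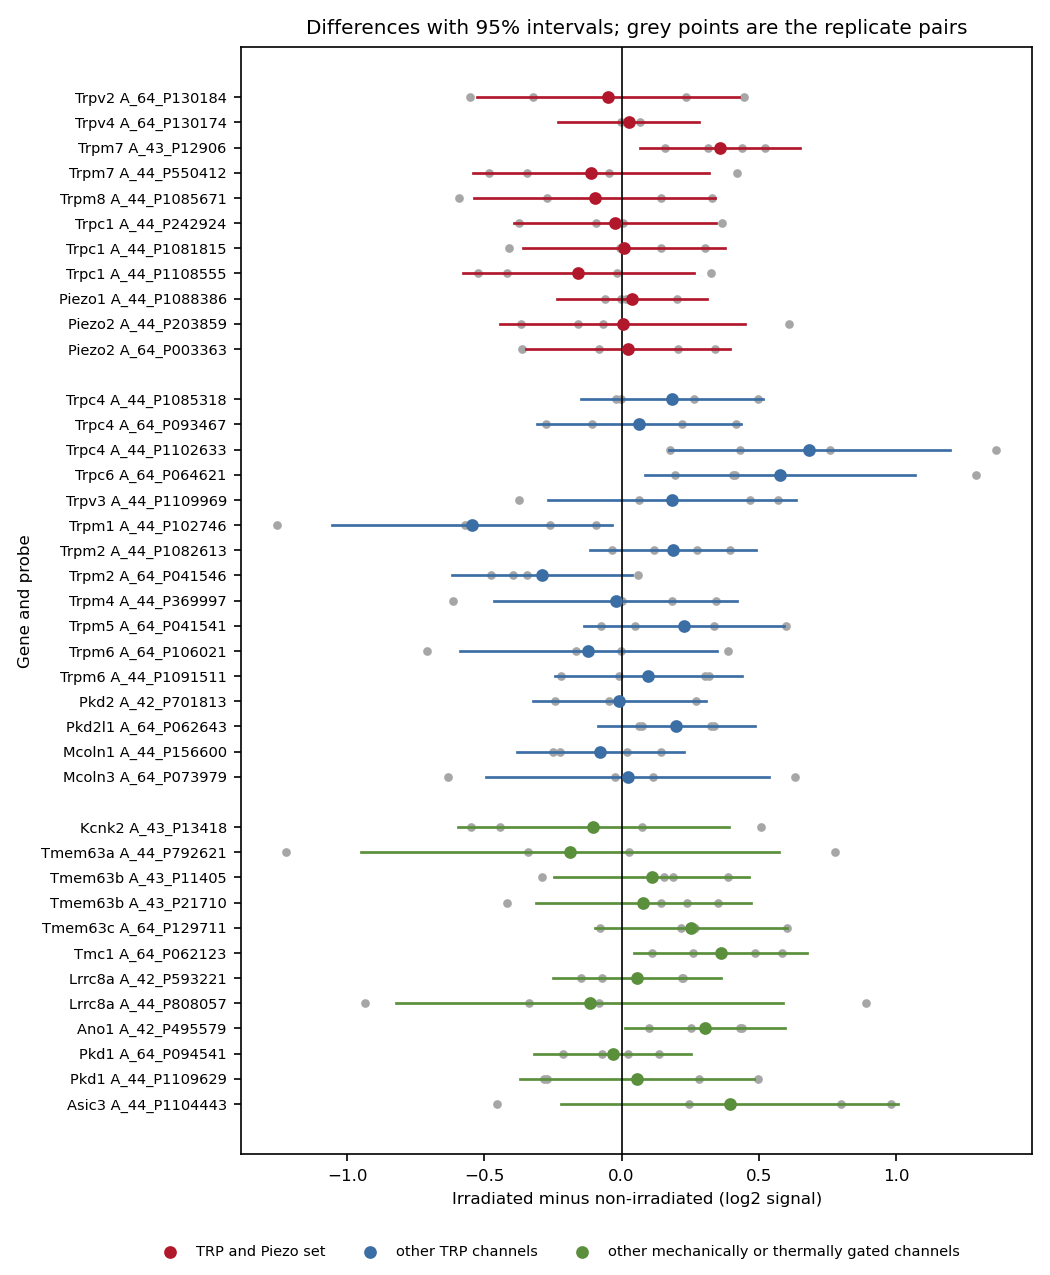
Difference in log2 signal between irradiated and non-irradiated cells (horizontal axis) for the tested probes of the TRP and Piezo set (red), of other TRP channels (blue) and of other gated channels (green), with 95% intervals as lines and the 4 pairs as grey points. Among the member probes, the interval of Trpm7 A_43_P12906 alone lies clear of 0.

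Genes of store-operated calcium entry and calcium release (Stim, Orai, Itpr and the calcium pumps) gave 16 tested probes, of which none had an unadjusted p below 0.05. Of these, 15 were detected on all 8 arrays, with a median difference of 0.039, and 1 passed the filter through 1 group alone. The Orai3 probe was lower in 4 of 4 pairs, with a difference of -0.077 (SE 0.11). The genes that respond to calcium or stretch gave 18 tested probes, none with an unadjusted p below 0.05 and with a median difference of 0.0085. Among the latter, 1 probe was lower in 4 of 4 pairs (3.98% of all tested probes), that of the immediate early gene Fos, with a difference of -0.11 (SE 0.11, limma adjusted p = 1.00). Another was higher in 4 of 4 pairs, Nr4a2 A_44_P522524, of an orphan nuclear receptor, with a difference of 0.18 (SE 0.11, limma adjusted p = 1.00), while the other Nr4a2 probe differed by 0.073. The stretch-responsive genes Ctgf and Cyr61 differed by -0.067 and -0.051.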

How the data were processed

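RNA of 8 cultures was labelled with Cy3 and measured on 1-colour Agilent arrays, 4 per group, which limits the precision. The authors deposited spot intensity values from Agilent Feature Extraction 11.0.1.1, corrected for background and trend within each array, together with its 0 or 1 calls for spots well above background. Per the methods, their deposited log2 values (24029 rows, 1 per transcript) were quantile normalised and tested with limma.

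Here, processed signals of 58717 rat spots per array were log2 transformed and quantile normalised, outlier spots (446 to 690 per array) were left out, and spots of a probe were averaged. Probes detected on every array of at least 1 group were fitted with limma 3.58.1 in R 4.3.3, with group and replicate number as terms and Benjamini-Hochberg adjustment over 26399 fitted probes of 26404. The code was tested on simulated data. The pairing comes from the names of the deposited data, where the 2 arrays that share a replicate number also share the number of an animal. Deviations of paired arrays from their group means correlated with r = 0.608, 0.0542, 0.571 and 0.749 for pairs 1 to 4, and irradiated array 2 correlated better with non-irradiated array 1 (0.439).

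The 5 member probes that failed the filter were described by their signals. Named genes were all members, genes of the lists with an unadjusted p below 0.05 or detected on all 8 arrays, and up to 2 probes most like each member probe. Some further genes of the lists were named after their values were seen. The members and lists were chosen with earlier results of these data known. Alternatives were other background corrections, normalisations, filters, pairings and variance priors, the deposited values, and leaving out each replicate. Gene names and positions (rn4) are those of the array's design, and exon or UTR annotation was not used here. The values of 2 genes of the lists are not reported here.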

Additional observations from a re-analysis of the deposited data

How the results depend on the processing

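No member probe and no probe of the whole array passed an adjusted p of 0.1 under any of the alternatives run, with or without the replicate block. With no replicate block, 246 probes had an unadjusted p below 0.05 in place of 670, and the smallest adjusted p was 0.924. With the replicate block as a random effect the smallest adjusted p was 0.212. The count of member probes at an unadjusted p below 0.05 was 1. It fell to 0 with no replicate block, with the random replicate block and with probes averaged by gene. Leaving out single replicates gave 0 to 1 (0 without replicate 1 or replicate 3). The count was also 0 with the deposited log2 values (8 rows of members, 1 per transcript). Trpm7 A_43_P12906 was not among the rows fitted there, so that count says nothing about its call. For the other TRP channels, whose calls came from probes detected on 7 of 8 arrays, the count of 3 became 1 with no replicate block. For the other gated channels the count of 2 became 1 after scaling to the 75th percentile and 0 with no replicate block.

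Piezo2 A_44_P203859 reversed in sign, to -0.0023 with scaling to the 75th percentile, to -0.011 with normexp and to -0.016 with the mean signal, and lay between -0.20 and 0.13 with a replicate left out. Other differences that changed sign with a replicate left out were those of Trpv2 (from -0.21 to 0.12), Trpc1 A_44_P242924 (from -0.15 to 0.092), Trpc1 A_44_P1081815 (from -0.091 to 0.15), Piezo2 A_64_P003363 (from -0.081 to 0.15), Trpm7 A_44_P550412 (from -0.29 to 0.011), Trpm8 (from -0.24 to 0.067) and Piezo1 (from -0.015 to 0.073). The cause was not tested. Under the 2 looser detection rules, 8 channels in place of 7 were detected on all 8 arrays.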
